A study of Mus musculus with 12 samples.

Results

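Interferon-stimulated genes are the transcripts that cells switch on when an interferon binds its receptor, and 40 of them were followed here in RNA of distal colon. The 40 were chosen by name, and their deposited transcript values were summed per gene. They stand among 35241 gene symbols of the table, of which 15880, all 40 members included, had a mean of at least 0.5 over the mice and were tested. By the interferon best known to induce them, 25 were placed in a type I class (interferon alpha and beta) and 15 in a gamma class (interferon gamma), although most of these genes answer to both to some extent.

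The RNA came from full-thickness distal colon of 12 mice. In 6 Spry2IEKO mice, both Spry2 alleles are floxed and Cre driven by the villin promoter (Vil1::Cre) removes Sprouty2 from the intestinal epithelium only. The 6 Spry2FF littermates carry the same floxed alleles without Cre. Litters A and B each gave 3 Spry2FF and 3 Spry2IEKO mice. In litter A the Spry2FF mice are numbers 2, 3 and 7 and the Spry2IEKO mice 4, 5 and 6, and in litter B the Spry2FF mice are 9, 10 and 13 and the Spry2IEKO mice 8, 11 and 12. Values of single mice are given in this order, Spry2FF before Spry2IEKO in each litter. Mice 2, 3, 8 and 9 were male. The labels give ages of 6 weeks in one protocol and 8 weeks in another, and no treatment.

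All values below are TPM (transcript abundance relative to all transcripts of a mouse) that the authors scaled once more between mice, written as scaled TPM. They are corrected for transcript length, so levels of different genes can be set side by side, but they hold no read counts and the depth behind each is unknown. Their totals per mouse ran from 918816 to 1069158. Spry2, read in whole tissue, was at 22.8 to 32.3 in Spry2FF and 18.5 to 22.5 in Spry2IEKO mice, so that the groups did not overlap (exact permutation test, two-sided p = 0.00216, the smallest that 6 against 6 can give). All 8 markers of colon epithelium and all 6 of smooth muscle passed the filter, with sums of 5057 to 9405 and 3226 to 7887. Since whole tissue was read, fewer cells of a type and less RNA per cell cannot be told apart.

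Type I interferons signal through Ifnar1 and Ifnar2 and the kinases Jak1 and Tyk2 to a complex that holds Stat2 and Irf9 and binds the interferon-stimulated response element (ISRE). Interferon gamma signals through Ifngr1 and Ifngr2 and the kinases Jak1 and Jak2 to genes that carry the gamma-activated site (GAS), among them Irf1, itself a factor for the same response element. In the gut, type I and type III interferons hold back viruses, and interferon gamma from T and NK cells raises antigen presentation and the defense of cells against bacteria and parasites inside them.

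Promoters are shown for 7 members to make the 2 elements visible where the classes differ or overlap. RefSeq (GRCm38.p6) had an entry for 28 of the 40 members, 17 of type I and 11 of gamma. The search used GAAA, any 2 bases and GAAA, on both strands, for ISRE, and TTCNNNGAA, which reads the same on both strands, for GAS, in the 250 bases before each start. Capitals mark the matches. Each run is the stretch of up to 120 bases that ends at the RefSeq start or, for Ifit1, at the first annotated exon, and it lies in no GENCODE M21 exon.
Isg15 (chr4:156200819-156200938, minus strand, 3 overlapping ISRE matches): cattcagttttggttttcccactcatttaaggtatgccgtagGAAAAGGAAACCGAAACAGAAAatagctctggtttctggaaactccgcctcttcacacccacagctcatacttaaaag
Ifit1 (chr19:34640769-34640870, plus strand, 2 ISRE matches): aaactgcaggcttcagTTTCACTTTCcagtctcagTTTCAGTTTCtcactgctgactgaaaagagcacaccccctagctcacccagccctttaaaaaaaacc
Oas1a (chr5:120907526-120907645, minus strand, 1 GAS match and then 2 overlapping ISRE matches): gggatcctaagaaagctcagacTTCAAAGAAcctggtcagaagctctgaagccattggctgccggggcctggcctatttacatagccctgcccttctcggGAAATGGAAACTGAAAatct
Irf1 (chr11:53769894-53770013, plus strand, 1 GAS match): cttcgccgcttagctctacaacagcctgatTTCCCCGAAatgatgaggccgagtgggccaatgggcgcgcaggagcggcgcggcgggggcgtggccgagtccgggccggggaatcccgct
Gbp7 (chr3:142530216-142530335, plus strand, 2 GAS matches and then 1 ISRE match): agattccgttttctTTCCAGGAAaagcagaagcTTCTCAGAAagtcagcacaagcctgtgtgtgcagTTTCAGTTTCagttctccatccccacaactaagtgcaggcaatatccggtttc
Igtp (chr11:58199436-58199555, plus strand, 1 GAS match and then 1 ISRE match): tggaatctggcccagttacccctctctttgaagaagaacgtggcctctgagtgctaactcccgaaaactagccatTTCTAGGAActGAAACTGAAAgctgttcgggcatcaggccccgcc
Irgm2 (chr11:58214857-58214976, plus strand, 1 GAS match and then 1 ISRE match): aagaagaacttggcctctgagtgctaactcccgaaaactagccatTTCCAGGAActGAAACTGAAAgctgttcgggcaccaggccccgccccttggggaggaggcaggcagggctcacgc

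An ISRE match stood in 8 of the 17 type I entries and in 6 of the 11 gamma entries, against 2.98% of all 32851 promoters. A GAS match stood in 3 of the 17 and in 5 of the 11, against 7.02% of all promoters. Both elements occurred together in 2 type I members (Bst2, where the matches overlap, and Oas1a) and in 3 gamma members (Gbp7, Igtp and Irgm2), against 0.332% of all promoters. Igtp (58199556 to 58207591) and Irgm2 (58199618 to 58222782) overlap on chromosome 11 in GENCODE M21. The Irgm2 run, which ends at a RefSeq start, thus lies inside the annotated Irgm2 gene. With an offset of 30 bases the 250-base promoters of Igtp and Irgm2 were identical at 134 of 220 aligned bases. The Irf1 run holds a GAS match and no ISRE match, as the run of Isg15 holds ISRE matches and no GAS match. A match describes letters only and is not a measured binding site.

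The colon held these transcripts at rest over a wide range. Of the type I members, 13 had a mean of at least 10, 7 a mean from 2 to 10 and 5 a mean under 2, and of the gamma members the numbers were 7, 7 and 1. Irf1, the factor of the gamma response, was the highest member of all and was at 115.7, 124.9 and 91.95 in Spry2FF and 95.9, 93.6 and 111.7 in Spry2IEKO mice of litter A, and at 106.9, 85.8 and 116.3 and 81.2, 101.3 and 103.1 in those of litter B. Its values differed 1.54-fold between the highest and the lowest mouse. Psmb8, a subunit of the immunoproteasome that cuts peptides for MHC class I, was at 34.3, 43.9 and 28.2 in Spry2FF and 50.99, 31.3 and 42.2 in Spry2IEKO mice of litter A, and at 34.6, 54.4 and 46.4 and 20.51, 44.8 and 42.3 in those of litter B. Mouse 8 was the lowest for both.
Oas1a, which makes the 2'-5' oligoadenylates that activate RNase L, led the type I class and was at 48.9, 47.6 and 36.4 in Spry2FF and 41.51, 40.4 and 46.98 in Spry2IEKO mice of litter A, and at 49.4, 52.3 and 46.8 and 38.8, 44.4 and 51.6 in those of litter B. Ifih1 (MDA5), a sensor of long double-stranded RNA, was at 43.54, 41.1 and 40.1 in Spry2FF and 36.6, 45.3 and 34.04 in Spry2IEKO mice of litter A, and at 37.1, 39.98 and 36.6 and 34.1, 40.97 and 43.6 in those of litter B. Ifih1 had the narrowest spread of the 40, with 1.33-fold between the highest and the lowest mouse. At the other end, Ifi47, an immunity-related GTPase, differed 17.03-fold and Isg15, the ubiquitin-like modifier, 11.6-fold. Of the transcript sequence of Oas1a, 68.8% of the distinct 31-base words also occur in other genes, mostly Oas1g, so the split of reads between these 2 genes is uncertain. The same holds for Ifit3 (61.8%, Ifit3b) and Gbp6 (74.3%, mostly the gene model Gm43302), while the share was at most 15.9% in the other 37.

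The remaining type I effectors were at these mean levels over the 12 mice. Xaf1, a partner of the apoptosis inhibitor XIAP, had a mean of 16.2, Oasl1 and Oasl2, relatives of the oligoadenylate synthetases, had means of 17.8 and 17.3, and Bst2, which tethers budding virus to the cell surface, had one of 16.1. Parp14, an ADP-ribosyltransferase, was at 14.7 and Rtp4, a receptor-transporting protein, at 12.54. The Ifit genes, whose products bind foreign RNA, lie side by side on chromosome 19 and were lower, at 7.02 for Ifit3, 4.01 for Ifit1 and 3.18 for Ifit2. The dynamin-like GTPases Mx1 and Mx2 (chromosome 16) were at 2.25 and 1.19, Rsad2 (viperin) at 1.52, Ifi44 at 0.943, Oas3 at 0.843 and Oas2 at 0.764. Among the sensors, Zbp1, which binds Z-form nucleic acid, was at 20.1, Ddx58 (RIG-I) at 12.49 and Dhx58 (LGP2) at 7.74. The factors Irf7, Irf9 and Stat2 were at 38.1, 18.9 and 17.2, and Usp18, which removes Isg15 from proteins and dampens the type I receptor, at 2.20.
Of the gamma members, the immunity-related GTPases, which act on the vacuoles of intracellular microbes, ran from 2.496 for Iigp1 over 3.46 for Ifi47, 9.27 for Igtp and 11.04 for Irgm2 to 31.6 for Irgm1. The guanylate-binding proteins, which coat such vacuoles and bacteria, were at 27.6 for Gbp2, 7.18 for Gbp3, 5.98 for Gbp7, 2.09 for Gbp6 and 2.02 for Gbp4. For antigen presentation, Psmb9, another immunoproteasome subunit, was at 20.4, Tap1, the peptide transporter beside it on chromosome 17, at 11.001 and Nlrc5, the transactivator of MHC class I genes, at 1.49.

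**Figure D1:**
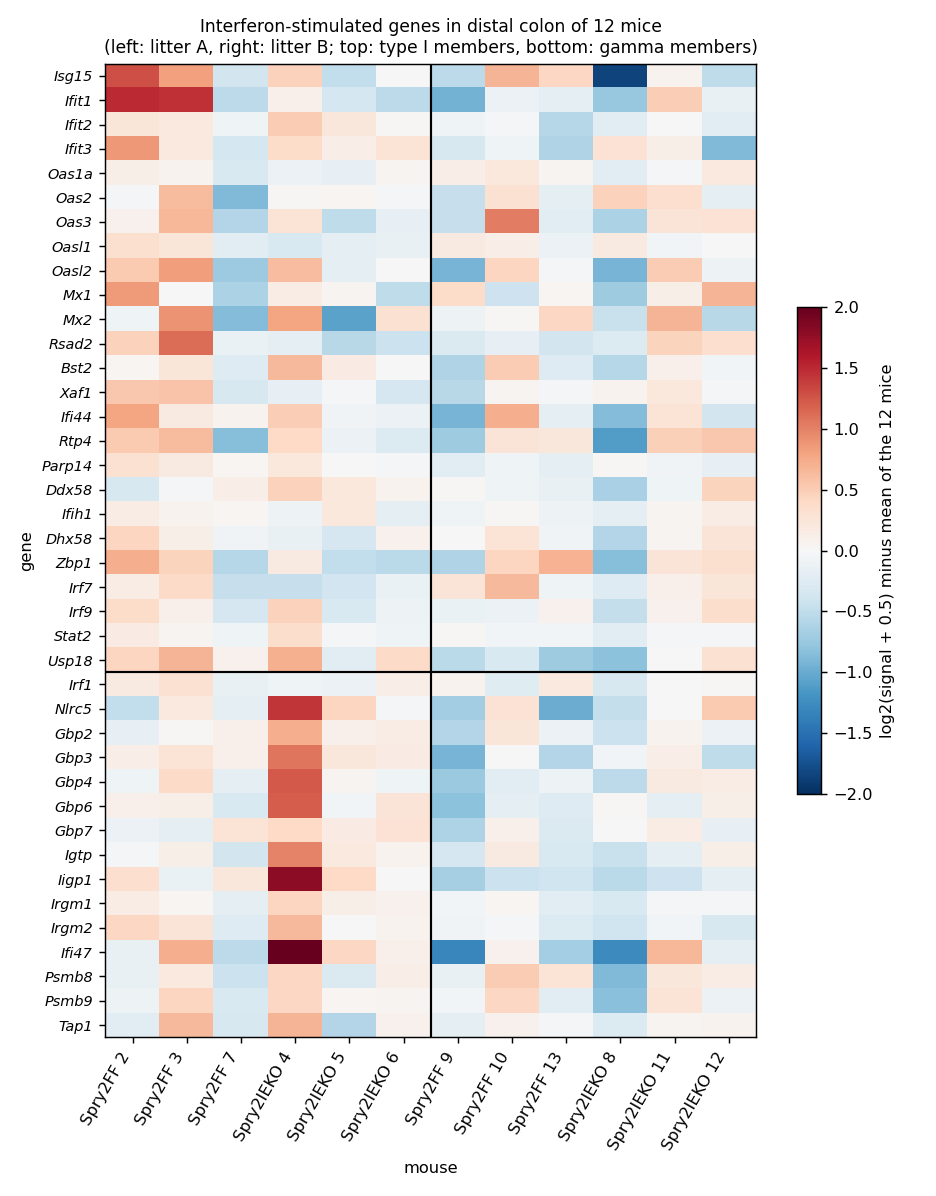
Each cell gives log2(scaled TPM + 0.5) of 1 member (rows, type I above the line and gamma below) in 1 mouse (columns, litter A left and litter B right) minus the gene's mean over the 12 mice, and colours saturate at 2 in either direction. Spry2IEKO mouse 4 is red in the gamma rows except Irf1, and Spry2FF mice 2 and 3 are red in many type I rows.

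The first comparison asked whether the loss of epithelial Sprouty2 went with another interferon state of the colon. No member was called by genotype at an adjusted p under 0.05 (limma, Benjamini-Hochberg over 15880 genes), where 0.0315% of all genes (5 genes) were. At an unadjusted p under 0.05, no member passed, against 6.18% of all genes, and no member had groups of 6 mice that did not overlap, against 0.403% of all genes. The lowest adjusted p of a member was 0.826 (Isg15 and Nlrc5). The 2 classes lay on opposite sides of 0. The median log2 difference (Spry2IEKO minus Spry2FF) was -0.07 over the type I members, with 7 of 25 higher in Spry2IEKO, and 0.25 over the gamma members, with 11 of 15 higher, and 0.01 over all genes tested, of which 52.1% were higher. Since the test called no member, these medians are a description.

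Among the type I members, Isg15 had the lowest p and was at 15.9, 11.4 and 4.74 in Spry2FF and 8.79, 4.30 and 6.22 in Spry2IEKO mice of litter A, and at 4.16, 10.3 and 8.45 and 1.37, 6.59 and 4.25 in those of litter B. Mouse 2 was the highest and mouse 8 the lowest, and the genotypes overlapped in both litters. The mean was 9.15 ± 4.39 (SD, n = 6) in Spry2FF and 5.25 ± 2.54 in Spry2IEKO mice, a log2 difference of -0.77 ± 0.39 (SE; limma adjusted p = 0.826; exact permutation test, two-sided p = 0.0887). Irf7, the factor that amplifies the type I response, was at 40.99, 48.7 and 26.8 in Spry2FF and 26.96, 28.4 and 33.7 in Spry2IEKO mice of litter A, and at 44.3, 58.3 and 35.1 and 30.96, 39.8 and 43.9 in those of litter B. The groups overlapped, with mouse 10 the highest, and the log2 difference was -0.30 ± 0.17 (limma adjusted p = 0.839; exact permutation p = 0.132). Oasl1, which restrains translation of Irf7, was at 22.2, 20.9 and 15.04 in Spry2FF and 14.1, 15.53 and 15.9 in Spry2IEKO mice of litter A, and at 19.9, 19.3 and 16.1 and 19.95, 16.9 and 17.4 in those of litter B. Mice 2 and 3 were the highest, and the log2 difference was -0.18 ± 0.11 (limma adjusted p = 0.844; exact permutation p = 0.134).

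Ifit1 and Rsad2 are named after their values were seen. Ifit1 was at 10.3, 10.1 and 2.19 in Spry2FF and 3.62, 2.504 and 2.18 in Spry2IEKO mice of litter A, and at 1.499, 3.04 and 2.91 and 1.78, 4.93 and 2.98 in those of litter B. Mice 2 and 3 stood at least 2-fold above the 10 others, whereas their littermate of the same genotype, mouse 7, did not. Rsad2 was at 2.14, 3.63 and 1.24 in Spry2FF and 1.19, 0.805 and 0.919 in Spry2IEKO mice of litter A, and at 1.07, 1.21 and 0.984 and 1.08, 2.09 and 1.91 in those of litter B, again with mouse 3 the highest and mouse 2 next. Together, mice 2 and 3 held the highest value of 15 of the 25 type I members, against 14.1% of all genes tested. Without these 2 mice (an alternative chosen after seeing the data), the type I median was 0.12 and 17 of 25 members were higher in Spry2IEKO mice. In the females alone it was 0.14 with 18 of 25 higher. Of all genes, 54.2% were higher without these 2 mice and 53.5% in the females alone. With all 12 mice and sex as a covariate the type I median was -0.07, with 6 of 25 higher. The sign of the type I median by genotype thus changed without mice 2 and 3 and in the females alone, but not with sex in the fit, and without mouse 2 alone the median was 0.01.

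Among the gamma members, Nlrc5 had the lowest p and was at 0.783, 1.57 and 1.09 in Spry2FF and 4.35, 1.94 and 1.25 in Spry2IEKO mice of litter A, and at 0.607, 1.70 and 0.409 and 0.799, 1.32 and 2.08 in those of litter B. Mouse 4 was 2.09-fold above the next mouse, and the groups overlapped. The mean was 1.03 ± 0.52 (SD, n = 6) in Spry2FF and 1.95 ± 1.26 in Spry2IEKO mice, a log2 difference of 0.63 ± 0.32 (limma adjusted p = 0.826; exact permutation p = 0.0952). Gbp6 was at 2.13, 2.17 and 1.48 in Spry2FF and 5.15, 1.86 and 2.44 in Spry2IEKO mice of litter A, and at 0.890, 1.66 and 1.54 and 1.99, 1.63 and 2.15 in those of litter B. Mouse 4 was again the highest, and in litter B 2 of the 3 Spry2IEKO mice were above all 3 Spry2FF mice. The log2 difference was 0.45 ± 0.24 (limma adjusted p = 0.836), and the exact permutation p was 0.0844 over all mice and 0.045 when mice were exchanged within litters only. In that unadjusted test it was the 1 member of 40 under 0.05 (2.5%), below the 7.31% of all genes that were. Gbp7 was at 5.34, 5.06 and 7.22 in Spry2FF and 7.88, 6.66 and 7.28 in Spry2IEKO mice of litter A, and at 3.67, 6.34 and 4.72 and 5.82, 6.58 and 5.19 in those of litter B, a log2 difference of 0.28 ± 0.15 (limma adjusted p = 0.837; exact permutation p = 0.0952). All 5 guanylate-binding proteins had a higher mean in Spry2IEKO mice, and in both litters for all but Gbp2. The log2 difference of Gbp2 was 0.35 among litter A mice and -0.004 among litter B mice. Mouse 4 was the highest for all 5, so their differences in litter A rest partly on 1 mouse. Tap1, Psmb8 and Psmb9, the genes of peptide supply, had log2 differences of 0.01, -0.08 and -0.05.

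Mouse 4 held the highest value of 12 of the 15 gamma members, against 15.9% of all genes tested. Ifi47, named after its values were seen, was at 2.36, 4.77 and 1.70 in Spry2FF and 13.3, 3.72 and 2.92 in Spry2IEKO mice of litter A, and at 0.784, 2.85 and 1.47 and 0.806, 4.53 and 2.26 in those of litter B. Mouse 4 was there 2.80-fold above the next mouse. Without mouse 4 the gamma median by genotype was 0.04, and without mice 4 and 5 (an alternative chosen after seeing the data) 0.004. Within litters, the gamma median was 0.32 in litter A, with 14 of 15 members higher in Spry2IEKO mice, and 0.002 in litter B, with 8 of 15 higher. Over all genes it was 0.02 in litter A, with 53.6% higher, and -0.002 in litter B, with 49.2% higher. For the type I members these medians were -0.11 and -0.004. In litter A all 3 Spry2IEKO mice were female and 2 of the 3 Spry2FF mice male, so genotype and sex cannot be fully told apart there. With sex as a covariate the median gamma difference between the litters' genotype effects (litter B minus litter A) went from -0.25 to -0.08, and the gamma median by genotype from 0.25 to 0.18.

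**Figure D2:**
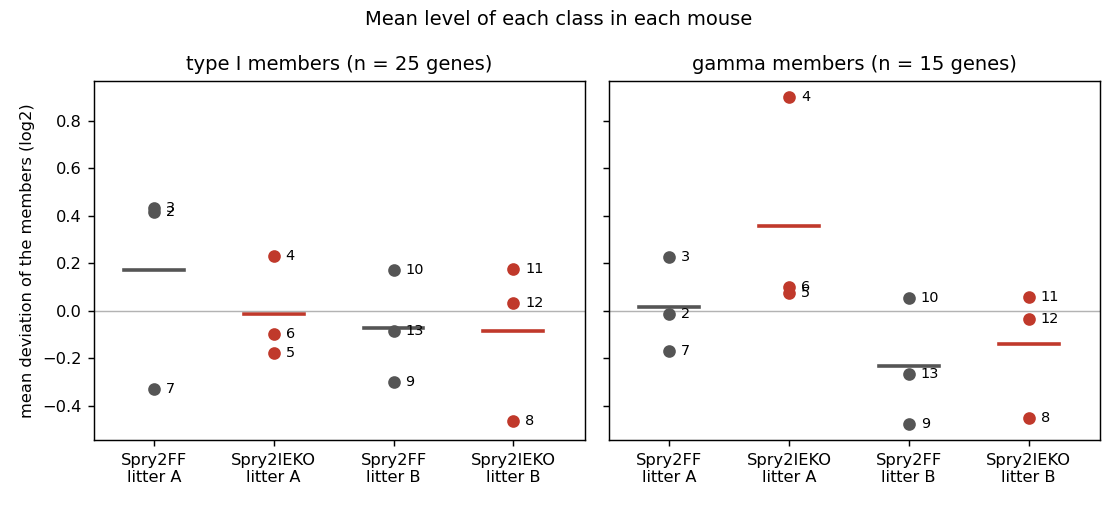
Each point is 1 mouse, labelled by its number, and gives the mean over the members of a class of log2(scaled TPM + 0.5) minus the gene's mean over the 12 mice (left, 25 type I members; right, 15 gamma members), with lines for the mean of 3 mice. Mice 2 and 3 lie at 0.42 and 0.43 in the type I class and mouse 4 at 0.90 in the gamma class, above all others.

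The interaction of genotype and litter, the test of whether the genotype difference itself changed between litters, called no member and 0.0126% of all genes (2 genes). The 1 member with an unadjusted p under 0.05, against 4.19% of all genes, was Rsad2, whose log2 difference between genotypes was -0.87 among the mice of litter A and 0.44 among those of litter B. The difference of these differences was 1.31 ± 0.44 (limma, adjusted p = 0.998). The gamma members with the widest gap between litters were Psmb8 (-0.60 ± 0.42) and Igtp (-0.53 ± 0.36), and neither passed.

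**Figure D3:**
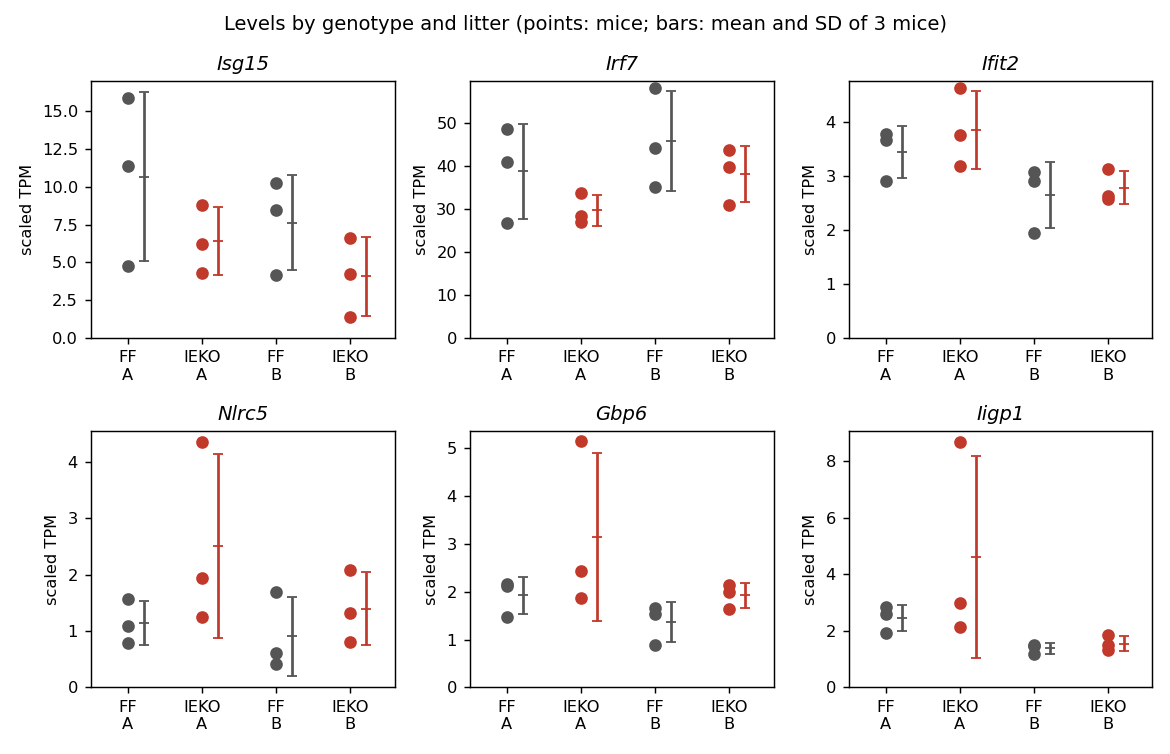
Scaled TPM of 6 members (3 type I above, 3 gamma below) in each mouse (points) by genotype and litter, with the mean and SD of 3 mice beside them. Isg15 and Irf7 reach their highest values in Spry2FF mice, Nlrc5, Gbp6 and Iigp1 in 1 Spry2IEKO mouse of litter A, and Iigp1 is lower in each mouse of litter B than in any of litter A.

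The second comparison set litter B against litter A. Litter cannot be told apart from anything else that differed between the litters, such as cage or day of collection. Among all genes 4.38% (696 genes) were called at an adjusted p under 0.05, and no member was. At an unadjusted p under 0.05, 7 of 40 members (17.5%) were lower in litter B, against 14.8% of all genes, and none was higher. With all mice, the members' share was thus close to the background. The count ran from 5 (without mouse 2) to 14 (without mouse 10) when a single mouse was left out. Without mouse 10, 2517 of 15879 genes were lower. Without mouse 7, the count was 11. In the females alone no member was lower and 5 were higher. The median log2 difference (B minus A) was -0.10 over the type I members, with 17 of 25 lower, and -0.33 over the gamma members, with 14 of 15 lower, against -0.05 over all genes, of which 58.8% were lower.

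Iigp1 was at 2.83, 1.92 and 2.60 in Spry2FF and 8.69, 2.998 and 2.12 in Spry2IEKO mice of litter A, and at 1.16, 1.47 and 1.51 and 1.32, 1.48 and 1.84 in those of litter B. It was the 1 member of 40 whose litters did not overlap, against 3.72% of all genes, with a mean of 3.53 ± 2.56 (SD, n = 6) in litter A and 1.47 ± 0.23 in litter B. The log2 difference was -0.87 ± 0.27 (limma adjusted p = 0.0826). Gbp3 was at 7.48, 8.25 and 7.25 in Spry2FF and 14.7, 7.99 and 7.62 in Spry2IEKO mice of litter A, and at 3.30, 6.69 and 4.31 and 6.48, 7.46 and 4.62 in those of litter B, and mouse 4 was the highest. Its litters overlapped by mice 7 and 11 only, and it had the lowest p of the members, with a log2 difference of -0.65 ± 0.19 (limma adjusted p = 0.0752). Irgm2, which restrains other immunity-related GTPases, was at 14.48, 13.02 and 8.95 in Spry2FF and 17.2, 10.8 and 11.4 in Spry2IEKO mice of litter A, and at 10.3, 10.4 and 8.88 and 8.03, 10.4 and 8.58 in those of litter B, a log2 difference of -0.38 ± 0.14 (limma adjusted p = 0.144). Irgm1 was the fourth gamma member with an unadjusted p under 0.05 (log2 difference -0.21 ± 0.10).

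Of the type I members, Parp14 was at 18.2, 16.7 and 14.97 in Spry2FF and 17.02, 14.7 and 14.4 in Spry2IEKO mice of litter A, and at 12.4, 13.7 and 12.6 and 14.8, 13.9 and 12.98 in those of litter B, with a log2 difference of -0.25 ± 0.08 (limma adjusted p = 0.0983). Its 5 lowest mice were all of litter B. Usp18 was at 2.94, 3.57 and 2.20 in Spry2FF and 3.66, 1.68 and 2.82 in Spry2IEKO mice of litter A, and at 1.25, 1.55 and 1.05 and 0.947, 2.05 and 2.65 in those of litter B, a log2 difference of -0.69 ± 0.23 (limma adjusted p = 0.107). Ifit2 was at 3.78, 3.66 and 2.90 in Spry2FF and 4.63, 3.76 and 3.18 in Spry2IEKO mice of litter A, and at 2.91, 3.08 and 1.94 and 2.63, 3.13 and 2.58 in those of litter B, with a log2 difference of -0.37 ± 0.14 (limma adjusted p = 0.138). In all 3 genes the litters overlapped. Irf7 leaned the other way, with means of 34.2 ± 8.91 (litter A) and 42.1 ± 9.46 (litter B; log2 difference 0.30 ± 0.16, limma adjusted p = 0.291), and was the type I member furthest above 0.

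When the totals were made equal in all mice, which moved the median of all genes from -0.05 to -0.12, 3 members were called lower in litter B: Gbp3 (adjusted p = 0.0387), Iigp1 (0.0421) and Parp14 (0.0494). They made up 7.5% of the members, against 8.51% of all genes called lower in that fit, which is close to the background. The gamma median was -0.24 without mouse 4 and -0.20 without mice 4 and 5, was below 0 in each genotype alone (Spry2FF -0.25, Spry2IEKO -0.49) and was -0.24 in females alone. The type I median did not keep its sign. It was 0.25 in females alone, with 17 of 25 members higher in litter B, and 0.08 without mice 2 and 3.

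**Figure D4:**
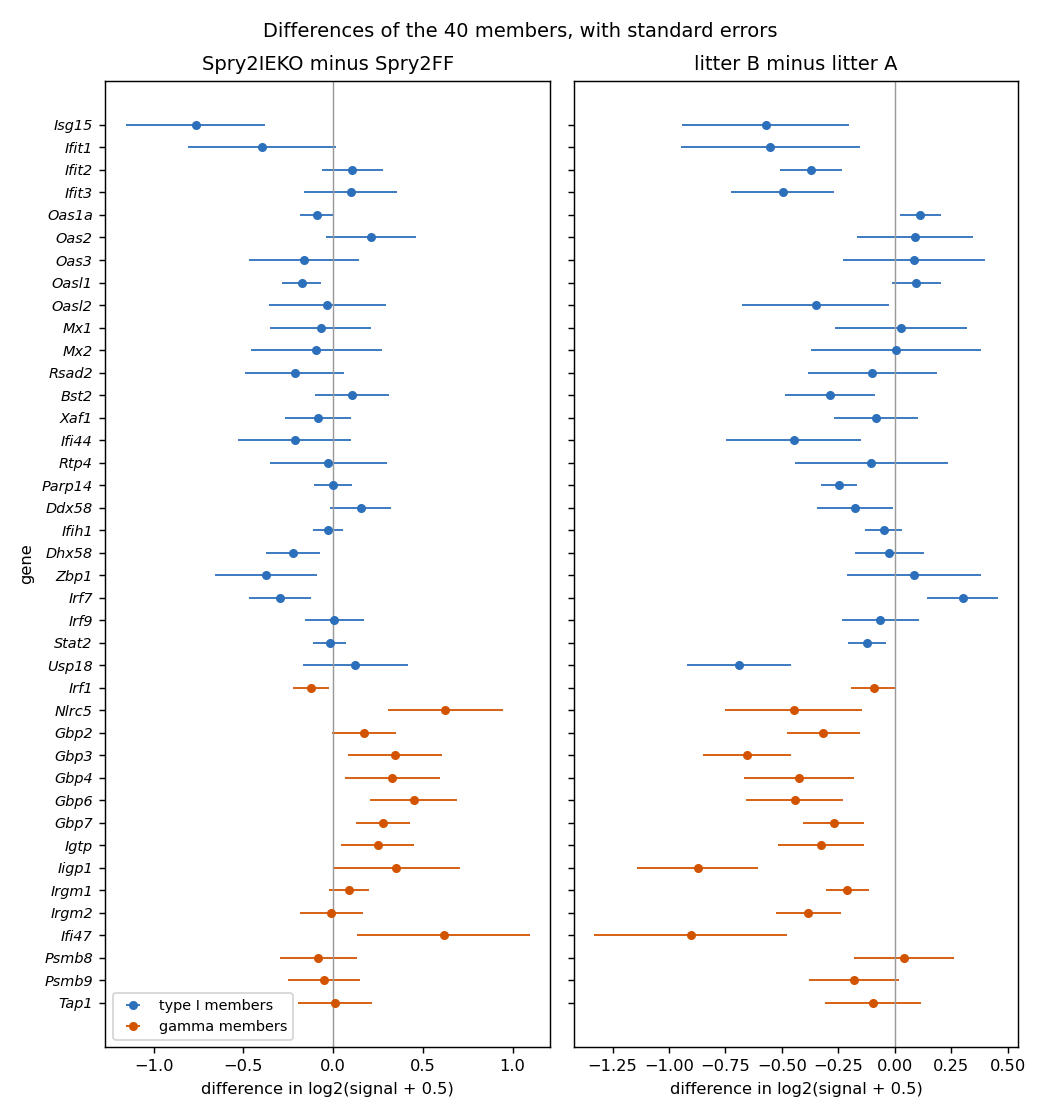
Differences of the 40 members in log2(scaled TPM + 0.5), with standard errors, by genotype (left, Spry2IEKO minus Spry2FF) and by litter (right, B minus A). By genotype 11 of 15 gamma members (orange) and 7 of 25 type I members (blue) lie above 0, and by litter 14 of 15 gamma members lie below 0, with none of the 40 called in either comparison.

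Genes upstream of the members were read from a list of 92 pathway genes. Of 21 interferon genes, 18 were listed at 0 in all 12 mice, Ifnb1 among them. Ifng was listed above 0 in mouse 3 (0.11) and mouse 13 (0.10) only, Ifnk in mouse 3 (0.18) and Ifnz in mouse 8 (0.06), so no ligand could be set against the levels of its targets. The receptors were all present. Ifngr1 was at 268 to 332 and Ifngr2 at 101 to 146, against 14.6 to 19.5 for Ifnar1 and 6.10 to 16.7 for Ifnar2, which form the type I receptor, and 5.91 to 10.2 for Ifnlr1 and 75.9 to 92.3 for Il10rb, which form the type III receptor. Socs1, a brake on the kinases, had a mean under 0.5 and at most 0.61.

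By genotype none of the 66 pathway genes tested was called, and 2 (Gbp8, higher in Spry2IEKO mice by 0.65 on the log2 scale, and Psmb10) had an unadjusted p under 0.05. The lowest p of each class belonged to Ifnar2 (log2 difference 0.32), Irf2 (0.18), the phosphatase Ptpn2 (0.14), Tmem173 (STING, 0.24), Cmpk2 (-0.34) and the immunoproteasome subunit Psmb10 (-0.33, adjusted p = 0.753). By litter 5 of the 66 were called, all lower in litter B, where 3.31% of all genes were called lower. Ifngr2 had means of 130.3 ± 9.4 (litter A) and 108 ± 6.7 (litter B; log2 difference -0.27 ± 0.06, adjusted p = 0.0337), and the kinase Jak1 59.8 ± 5.2 and 49.4 ± 3.5 (-0.27 ± 0.07, adjusted p = 0.0467). Ptpn11 (SHP2), a phosphatase that dampens the kinases, differed by -0.36 ± 0.08 (adjusted p = 0.0304), Ifitm3, which blocks entry of viruses, by -0.52 ± 0.12 (adjusted p = 0.0366), and Wars, the tryptophan tRNA synthetase induced by interferon gamma, by -0.45 ± 0.08 (adjusted p = 0.0167). Ifngr2 and Wars belong to the gamma response, while Jak1 serves both routes and Ptpn11 acts in many others. When each of the 12 mice was left out in turn, Wars was called in all 12 fits, Ptpn11 in 4, Ifngr2 in 3, Jak1 in 2 and Ifitm3 in 2, with the same sign throughout. None of the 5 was called without Spry2IEKO mice 4 and 5 (adjusted p = 0.0869 for Wars, the lowest) or without Spry2FF mice 2 and 3 (0.0597 for Wars). Nor was any of them called in females alone or in either genotype alone. With the highest transcript alone, Wars (adjusted p = 0.365), Ifngr2 (0.391) and Ptpn11 (0.154) were not called, while Jak1 and Ifitm3 were. After quantile normalization only Wars and Ifitm3 were called. For the other classes the lowest p by litter was that of Irf3 (0.15, adjusted p = 0.142), which was higher in litter B, and of Trim25 (-0.29, adjusted p = 0.0525), which activates RIG-I.

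Mouse 4 was also the highest in 11 of the 18 further genes of the gamma response that were tested, in 4 of the 18 further type I genes and in 12 of the 30 other pathway genes, against 15.9% of all genes. Among the members it was the highest in 6 of the 25 of type I, as was mouse 3. The chemokines Cxcl9 and Cxcl10, which draw T cells and are induced by interferon gamma, were at 2.13 and 4.34 there, against 0.04 to 0.75 and 0.12 to 2.80 in the other 11 mice. Cxcl9 did not pass the filter, and Cxcl10 did not pass the test by genotype (log2 difference 0.74 ± 0.36, adjusted p = 0.826).

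Immune cell markers were highest in mouse 4, as most gamma members were. The sum of 7 B cell genes was 390 in mouse 4, between 97.5 and 166 in mice 3, 6, 10 and 11, and between 3.14 and 17.6 in the other 7 mice. These 5 mice had gamma class means from 0.05 to 0.90, and the other 7 mice from -0.48 to 0.08, where mouse 5, with a B cell sum of 7.27, lay above mice 10 and 11. In the type I class the same 5 mice ran from -0.10 (mouse 6) to 0.43 and the other 7 from -0.46 to 0.42 (mouse 2, which had the lowest B cell sum). In both classes the ranges overlapped. The sum of 11 T and NK cell genes was 32.3 in mouse 4 and 3.29 to 14.9 in the others, that of 8 macrophage genes 135 and 38.7 to 114, and that of 5 dendritic cell genes 16.1 and 2.60 to 11.6. All genes of these 4 lists were above 0 in some mouse. A mean of at least 0.5 was reached by 7 of the 11 T and NK cell genes and 4 of the 5 dendritic cell genes. All B cell and macrophage genes reached it. By genotype the B cell sums ran from 3.14 to 163 in Spry2FF and 7.27 to 390 in Spry2IEKO mice, and by litter the macrophage sums from 71.2 to 135 in A and 38.7 to 103 in B. The sum of the 8 colon epithelium genes was lowest in mouse 4, at 5057. Among these 8 genes, Car1 ranged far more widely between mice than Epcam did. The sum therefore need not follow the amount of epithelium. Fat cell genes summed to 289 in mouse 4 and 498 in mouse 5 and to at most 49.7 in the other 10. The part of these cells in the gamma levels, and in the difference between litters, was not tested. Plasmacytoid dendritic cells, a major source of type I interferon, could not be followed by their list, because its sum (710 to 1977) was nearly all Klk1, a kallikrein read at 707 to 1971, and was highest in mouse 4 as well. Siglech, their defining surface gene, was at 0.526 to 2.68.

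**Figure D5:**
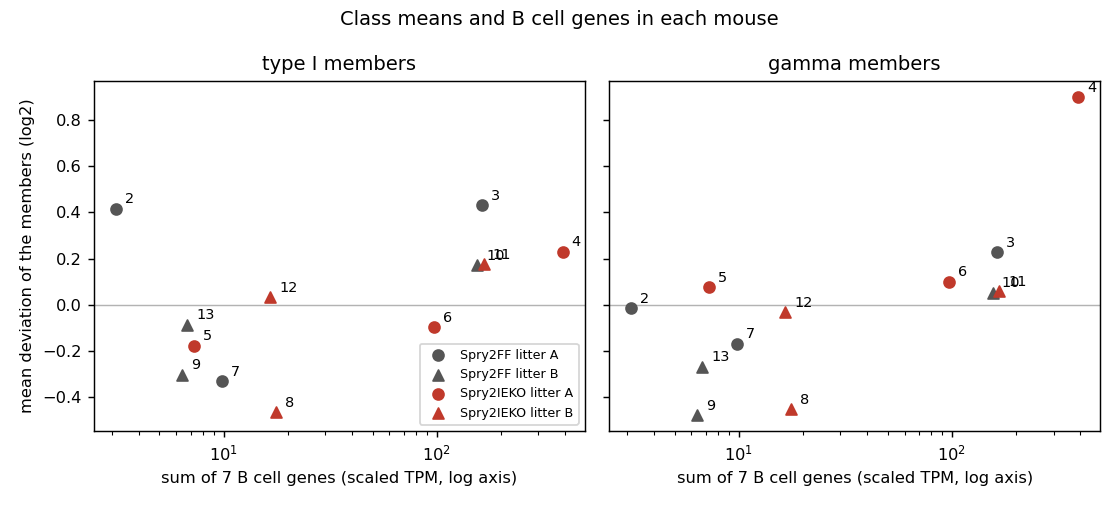
Class mean of each mouse (vertical, log2, as deviation from the mean of the 12 mice) against the sum of 7 B cell genes (horizontal, scaled TPM on a log axis), for type I (left) and gamma members (right), labelled by mouse number. Of the 5 mice with sums from 97.5 to 390, all have gamma means above 0, as mouse 5 has with a sum of 7.27, and 4 have type I means above 0, as mouse 2 has with the lowest sum.

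Finally, 3 pairs of members were correlated over the 12 mice, 2 of them a factor with a gene of its own class and 1 across classes. Irf7 and Isg15 had a Pearson r of 0.40 (permutation p = 0.201, adjusted over the 3 pairs 0.602) and a Spearman rho of 0.30 (permutation p = 0.344, adjusted 0.378). Irf1 and Gbp2 had an r of -0.11 (permutation p = 0.734, adjusted 0.734) and a rho of -0.29 (permutation p = 0.356, adjusted 0.378). Irf7 and Gbp2 had an r of -0.26 (permutation p = 0.415, adjusted 0.623) and a rho of -0.28 (permutation p = 0.378, adjusted 0.378). None of the 3 passed. Without the 2 mice farthest from the median of the first gene, r was 0.29, -0.50 and -0.50. Within litters of 6 mice, r for Irf7 and Isg15 was 0.74 in A and 0.63 in B (exact permutation p = 0.0972 and 0.171), for Irf1 and Gbp2 -0.47 and -0.11 (p = 0.382 and 0.815, exact permutation), and for Irf7 and Gbp2 -0.58 and 0.52 (p = 0.222 and 0.3, exact permutation). The level of Irf1, the most abundant member, thus did not rank the mice as that of Gbp2 did, which was highest in mouse 4 at 45.0, where Irf1 was at 95.9.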

How the data were processed

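RNA from full-thickness distal colon of 12 mice was sequenced. Reads were assigned to mouse transcripts with kallisto by the authors (mm10 per the labels). The deposited signal is the TPM of a transcript after a further scaling between mice, and sleuth is named among the tools. The columns of the authors' own test between genotypes were not used. The labels describe paired-end reads and the methods single-ended reads, and the transcriptome release is not given in the sources used here. The values hold no read depth, so no counting interval is given, and a 0 is reported only as listed at 0.

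Of 113974 entries, 781 repeats of a transcript were dropped, and the rest were summed to 35241 symbols, 194 transcripts belonging to the 40 members. Transcripts without a gene name held at most 0.0608% of a mouse's total. Linear models of limma 3.58.1 (R 4.3.3; moderated with a mean trend, two-sided) were fitted to log2(signal + 0.5) of 15880 genes whose mean reached 0.5, with Benjamini-Hochberg adjustment over all of them and a threshold of 0.05. Fold changes of low genes are understated on that scale. The 3 fits were genotype, litter with genotype as a covariate, and their interaction. The fits were tested on simulated data with known changes, of which the interaction fit recovered a much smaller share than the other 2 fits. Exact permutation of mice compared single members (924 divisions, or 400 within litters), and correlations by 100000 permutations or, within litters, by all of them.

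The members, their classes and the lists of pathway and marker genes were chosen with earlier results of these data known. Values of every mouse are given for the 3 members of each class with the lowest unadjusted p by genotype and by litter and the 2 with the highest mean. Pathway genes named are those called, the receptors, Socs1, Ifng, Ifnb1, Cxcl9, Cxcl10, ligands above 0 and the lowest p of each class, and 1 gene under that rule is not reported here. Positions and shared 31-base words come from GENCODE M21, promoters from RefSeq GRCm38.p6. Alternatives were another pseudocount, filter or scaling, the highest transcript alone, litter or sex as covariates, 1 litter, genotype or sex alone, and leaving out each mouse. Other tools were SciPy 1.17.1, pandas 2.3.3, NumPy 2.4.6 and matplotlib 3.10.9 in Python 3.11.15.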

Additional observations from a re-analysis of the deposited data

Results flagged for a closer look

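A gap test (Dixon's ratio above its 95% critical value) was run on untransformed scaled TPM in each group of 6 mice. It singled out 12 values in the 80 groups of 40 members by 2 genotypes. Chance alone gives about 1 in 20 groups only where values are normally distributed. Ratios on the log2 scale are not given, so an excess over chance is not shown. Of the 12 values, 9 were the value of Spry2IEKO mouse 4. In the gamma class they were Nlrc5 (4.35, against 0.799 to 2.08 in the 5 other Spry2IEKO mice), Gbp3 (14.7 against 4.62 to 7.99), Gbp4 (5.02 against 1.15 to 2.19), Gbp6 (5.15 against 1.63 to 2.44), Igtp (18.2 against 6.42 to 10.2), Iigp1 (8.69 against 1.32 to 2.998), Irgm2 (17.2 against 8.03 to 11.4) and Ifi47 (13.3 against 0.806 to 4.53). The type I member Stat2 was also at 21.9 in that mouse, against 14.8 to 16.8. These values come from 1 library and are not independent of each other. Mouse 4 held the highest value of 15.9% of all genes tested. No share of all genes flagged is given, so the flags are not shown to be particular to the members. Mouse 4 was also the highest in the B cell, T and NK cell, macrophage and dendritic cell sums, whose part was not tested.

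The 3 other values were Tap1 in Spry2FF mouse 3 (17.0, against 8.44 to 11.3), Oas1a in Spry2FF mouse 7 (36.4, the lowest, against 46.8 to 52.3) and Ifit3 in Spry2IEKO mouse 12 (3.38, the lowest, against 7.23 to 8.75).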

How the results depend on the processing

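No member was called by genotype or by the interaction in any alternative run. By litter, 3 members were called after rescaling to equal totals, 1 (Irgm2, adjusted p = 0.0496) with the highest transcript alone, and 0 to 1 (Gbp3, adjusted p = 0.0446, without Spry2FF mouse 10) when each mouse was left out. Genes called by genotype (5) numbered 1 without a filter, with sex as a covariate, in litter B alone, without Spry2IEKO mice 4 and 5 or without Spry2FF mice 2 and 3, 2 with quantile normalization, the highest transcript, litter A or females alone, and 1 to 11 when each mouse was left out. Genes called by litter (696) numbered 422 without a filter, 1456 after rescaling, 1 in females or either genotype alone, 17 without mice 4 and 5, 30 without mice 2 and 3, and 180 to 957 when each mouse was left out, with a change of over 1.5 times for every mouse but 8 and 10. Genes called by the interaction (2) numbered 0 with a mean of at least 2 and 2 to 5 when each mouse was left out. The type I median by litter (-0.10) was 0.25 in females alone. The exact permutation p of Gbp6 by genotype was 0.045 within litters, and r of Irf7 and Gbp2 was 0.52 in litter B. Why these moved was not tested. Groups were not numbered alike, so mice could be matched by litter only. Of 2816 repeats of a single member's difference, 5 gave a call, none with a reversed sign, and 303 changed sign without a call. The unknown depth limits the lowest members (5 of type I and 1 of gamma with a mean under 2).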
